A study of Mus musculus with 16 samples.

Results

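The genes described here are the 7 MHC class II genes H2-Aa, H2-Ab1, H2-Eb1, Cd74, Ciita, H2-DMa and H2-DMb1, taken by their symbols from count and FPKM tables that list 35415 genes. All 7 were found, and all 7 were among the 14749 genes that passed the filter on low counts. The tables hold polyA RNA sequencing of whole gastrocnemius muscle, the large calf muscle, from 16 wild-type male BALB/c mice, with 4 mice in each of 4 groups. The mice were 8 weeks old at purchase. Mice of the C group were tumor-free and sedentary, and those of the E group were tumor-free and ran on a treadmill for 4 weeks. Mice of the T group were sedentary and bore subcutaneous tumors of CT26, a mouse colon carcinoma line, and those of the TE group bore the same tumors and ran for 4 weeks from the day after inoculation. The sedentary mice spent some time each day on a treadmill that did not move. Tumor cells, or saline in the tumor-free mice, were injected under the skin of the left hind limb, and which side the sequenced muscle came from is not given in the sources used here, so a tumor may have lain near it. A mouse is named below by its group and its number in the labels, so that TE4 is mouse 4 of the TE group.

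MHC class II molecules are pairs of an alpha and a beta chain that carry peptides from taken-up proteins to the cell surface, where CD4 T cells read them. The chains assemble with the invariant chain, encoded by Cd74, which fills the groove until it is cut away, and the H2-DM molecule then helps exchange its last fragment for a peptide. Transcription of the chains, of Cd74 and of H2-DM depends largely on CIITA, a coactivator that is recruited to the X and Y boxes of their promoters. B cells, dendritic cells and many macrophages hold these transcripts steadily, and interferon gamma can bring them up in other cells. Muscle fibers at rest are not known for class II transcription, so that in whole muscle these transcripts are usually attributed to the cells between the fibers.

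Of the 7 genes, 5 lie together on chromosome 17 of the GRCm39 build, as the GENCODE annotation places them: H2-DMa at chr17:34338515-34358958, H2-DMb1 at chr17:34372046-34379204, H2-Ab1 at chr17:34476663-34488393 and H2-Eb1 at chr17:34504236-34535648 on the plus strand, and H2-Aa at chr17:34493404-34506798 on the minus strand. Ciita is at chr16:10297923-10347694 on the plus strand. H2-Aa and H2-Eb1 overlap on opposite strands over 118 exonic bases of H2-Aa, and 510 exonic bases of H2-DMa are shared with Brd2. The strand setting of the counting is not given in the sources used here, so reads from such stretches could not be assigned to 1 gene with certainty. H2-DMb1 has the near-identical neighbor H2-DMb2, and reads may have been split between them. The reference genome is that of C57BL/6J mice, which carry another class II haplotype than BALB/c mice, and how far this lowered the counts of the polymorphic chains was not tested; it applies to all 4 groups alike.

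Promoter sequences are shown because the X and Y boxes named above lie in them. RefSeq windows of the GRCm38.p6 build, 250 bases before to 50 bases after the gene start, held 4 of the 7 genes, and H2-Ab1, Cd74 and Ciita had no entry. The letters CTNGNAAC, which the X box of these promoters holds, and GATTGG of the Y box were searched on both strands. They do not overlap each other, and the X letters were written down after the sequences had been read. The X letters occurred in 13.2% and the Y letters in 16.1% of all 32851 windows, while X followed by Y on the strand of the gene at a distance of 8 to 40 bases occurred in 26 windows (0.0791%). H2-Aa, H2-Eb1 and H2-DMb1 were among these 26. The 150 bases from 130 before to 20 after the start are printed 5′ to 3′ on the strand of each gene with both motifs in capitals, and the positions are those of exact matches in GRCm39, namely chr17:34506778-34506927 (minus strand) for H2-Aa, chr17:34524711-34524860 (plus strand) for H2-Eb1 and chr17:34372035-34372184 (plus strand) for H2-DMb1.
H2-Aa: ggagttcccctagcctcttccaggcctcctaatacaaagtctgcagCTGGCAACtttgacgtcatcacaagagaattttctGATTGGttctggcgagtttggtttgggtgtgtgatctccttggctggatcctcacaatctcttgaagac
H2-Eb1: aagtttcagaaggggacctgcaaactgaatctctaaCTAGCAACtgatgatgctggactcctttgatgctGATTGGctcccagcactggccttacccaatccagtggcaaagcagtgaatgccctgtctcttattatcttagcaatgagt
H2-DMb1: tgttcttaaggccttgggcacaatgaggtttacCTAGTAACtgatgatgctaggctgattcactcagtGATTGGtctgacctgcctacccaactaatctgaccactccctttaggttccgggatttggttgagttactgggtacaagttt
Starts here are those of RefSeq, and for H2-Eb1 and H2-DMb1 they lie inside the wider gene bounds that GENCODE gives. The X letters began 84 bases before the RefSeq start in H2-Aa, 94 in H2-Eb1 and 97 in H2-DMb1, and 27, 26 and 27 bases separated them from the Y letters. The H2-Eb1 window also held the Y letters on the opposite strand. Of the 2 windows of H2-DMa, neither held the pair, and 1 held the Y letters alone. These matches describe letters in the reference strain and were not set against any binding data.

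The libraries held 35628211 to 37635741 counts, so depth differed little between the groups, and 3 counts correspond to 0.0797 to 0.0842 CPM (counts scaled to the library total; the CPM given for genes below were also divided by the TMM factor of the library). Of the muscle genes, Acta1 and Ckm, whose products are skeletal actin and muscle creatine kinase, had the highest mean levels at 20230 and 15390 FPKM (fragments scaled to gene length and library total), and the summed FPKM of 12 muscle genes lay between 75228 and 86688 in the 16 libraries. The libraries TE4, C3 and E1 stood apart by genes of lymph node and B cells. The summed FPKM of 10 lymph node genes was 125.8 in TE4, 44.9 in C3 and 39.5 in E1, against 6.28 to 27.3 in the other 13, and the summed FPKM of the 11 B cell genes present in the tables (of 13 listed) was 43.3, 14.3 and 10.5, against 0.149 to 4.58. Glycam1, a ligand made by the high endothelial vessels of lymph nodes, had 1023 counts in TE4 and 0 counts in 10 libraries. Group comparisons are given below with all 16 libraries and with the 13 libraries that remain without these 3. In whole tissue, more cells of a type and more RNA per cell cannot be told apart.

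The class II chains were well measured in the muscle of every mouse, and TE4 held the highest level of each. H2-Aa, the alpha chain of the I-A molecule, was at 6.97, 18.9, 21.6 and 12.02 FPKM in C1 to C4, 13.8, 9.93, 11.9 and 6.71 FPKM in E1 to E4, 12.2, 11.04, 17.02 and 9.19 FPKM in T1 to T4, and 7.79, 10.6, 12.7 and 30.5 FPKM in TE1 to TE4. The ranges of the 4 groups overlapped, the C group spread from near the lowest to the second highest mouse, and TE4 alone lay above all others. H2-Ab1, the beta chain that pairs with it, was at 6.05, 14.1, 14.8 and 9.71 FPKM in the C group, 13.8, 8.77, 9.73 and 8.20 FPKM in the E group, 9.82, 9.66, 14.3 and 7.98 FPKM in the T group, and 7.51, 11.3, 8.83 and 26.5 FPKM in the TE group. Its groups overlapped in the same way, with C1 the lowest mouse and TE4 the highest.

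H2-Eb1, the beta chain of the I-E molecule, was at 4.61, 11.5, 9.56 and 8.47 FPKM in C1 to C4, 8.89, 6.10, 8.96 and 6.20 FPKM in E1 to E4, 8.04, 9.71, 9.86 and 6.20 FPKM in T1 to T4, and 5.01, 7.46, 7.70 and 21.9 FPKM in TE1 to TE4. TE1, TE2 and TE3 lay below the medians of the C and T groups, which were 9.02 and 8.87 FPKM. The alpha chain of I-E, H2-Ea, was looked for by name and was not found among the genes given. The FPKM rest on gene lengths shorter than the annotated exons, 1128 against 4292 bases for H2-Aa, 1193 against 2568 for H2-Ab1, 1669 against 2596 for H2-Eb1 and 1415 against 2515 for Cd74, so ratios between genes depend on these lengths and are compared between mice only. The ratio of the FPKM of H2-Aa and H2-Ab1 lay between 0.818 in E4 and 1.46 in C3, with a median of 1.15 over the 16 mice. The ratio was 1.15 in TE4, so its high level was shared by both chains of I-A. H2-Eb1 was at 0.644 to 1.00 times the FPKM of H2-Ab1, and at 0.828 times in TE4.

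Cd74, the invariant chain, had the highest FPKM of the 7 genes, at 22.8, 53.5, 55.7 and 35.6 FPKM in C1 to C4, 43.5, 29.0, 41.7 and 22.0 FPKM in E1 to E4, 28.7, 31.1, 47.6 and 27.5 FPKM in T1 to T4, and 22.9, 30.2, 30.3 and 101 FPKM in TE1 to TE4. The groups overlapped, and TE4 was 1.81 times as high as the next mouse, C3. The ratio of the FPKM of Cd74 to that of H2-Aa, H2-Ab1 and H2-Eb1 added together was 0.956 to 1.36 (median 1.17) in the 16 mice and 1.28 in TE4. The summed FPKM of these chains ranged from 17.6 in C1 to 46.0 in C3 in 15 mice and was 78.9 in TE4.

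Ciita, the coactivator of the other class II genes, was low in most mice and was the member that varied most. It had 12, 14, 85 and 14 counts in C1 to C4, 49, 38, 23 and 9 counts in E1 to E4, 17, 10, 25 and 25 counts in T1 to T4, and 13, 20, 16 and 268 counts in TE1 to TE4. On the FPKM scale these were 0.0251 to 0.239 in 15 mice and 0.747 in TE4, so TE4, C3 and E1 held the highest levels in that order. Relative to the summed FPKM of H2-Aa, H2-Ab1 and H2-Eb1, Ciita was at 0.0876 to 0.520% in 15 mice and at 0.947% in TE4. C3 was second at 0.520% and E1, at 0.372%, lay below E2 at 0.434%, so of the 3 libraries with high lymph node genes only TE4 and C3 lay above all 13 others on this scale.

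H2-DMa, the alpha chain of the exchange factor H2-DM, was at 0.287, 0.617, 0.631 and 0.467 FPKM in C1 to C4, 0.455, 0.465, 0.453 and 0.390 FPKM in E1 to E4, 0.495, 0.434, 0.534 and 0.503 FPKM in T1 to T4, and 0.394, 0.431, 0.391 and 0.877 FPKM in TE1 to TE4. It was the least variable member, and TE4 was again the highest mouse. Its FPKM equalled 1.25 to 2.15% of the summed chains in 15 mice and 1.11% in TE4, the lowest share of the 16. The length behind this FPKM was 8325 bases against 4331 bases of annotated exons, so its FPKM would be higher with the annotated length, and it is compared here between mice only. H2-DMb1, its partner chain, was at 0.481, 0.889, 0.600 and 0.429 FPKM in C1 to C4, 0.548, 0.603, 0.455 and 0.532 FPKM in E1 to E4, 0.447, 0.487, 0.746 and 0.276 FPKM in T1 to T4, and 0.362, 0.910, 0.502 and 1.02 FPKM in TE1 to TE4. With 13 to 48 counts per library it was imprecise, and TE2 was nearly as high as TE4.

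**Figure D1:**
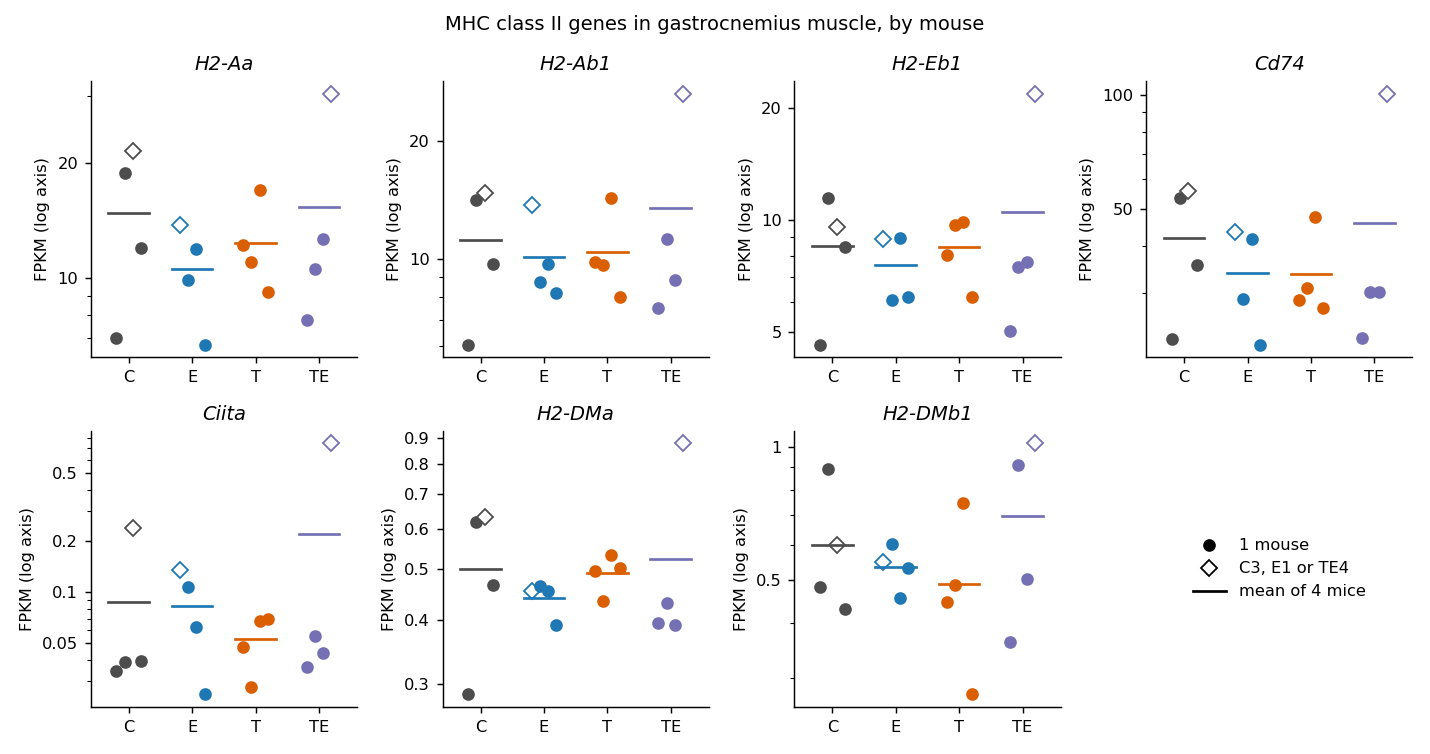
FPKM (log axis) of the 7 MHC class II genes in each of the 16 mice, by group, with the mean of 4 mice as a line and TE4, C3 and E1 as open diamonds. TE4 was the highest mouse for each gene, and the 4 groups overlapped for each gene.

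By group means over 4 mice, the TE group was highest and the C group second for all 7 genes, an order that did not outlast the removal of TE4, C3 and E1. Mean ± SD (n = 4) for Cd74 was 46.1 ± 36.7 FPKM in the TE group, 41.9 ± 15.6 FPKM in the C group, 34.1 ± 10.3 FPKM in the E group and 33.7 ± 9.37 FPKM in the T group. The SD of the TE group, which came from TE4, was larger than the distance between any of these means, and no neighbors in this order differed beyond their spread. The E group was lowest for H2-Aa, H2-Ab1, H2-Eb1 and H2-DMa, and the T group for Cd74, Ciita and H2-DMb1. Without TE4, C3 and E1 the TE group was highest for 0 of 7 genes and was lowest for Cd74, H2-Eb1 and H2-DMa. Mean FPKM of Cd74 was then 37.3 in the C group, 33.7 in the T group, 30.9 in the E group and 27.8 in the TE group, and that of H2-Eb1 was 8.45 in the T group, 8.18 in the C group, 7.09 in the E group and 6.72 in the TE group. In 28 exact permutation tests of FPKM (two-sided, 4 against 4 mice, 7 genes in E vs C, TE vs E, TE vs T and T vs C), 0 had p under 0.05. The smallest p was 0.257, the smallest these tests can give is 0.0286, and every p adjusted over the 28 tests was 1. The FPKM ranges of the groups were apart for 0 of 7 genes in each comparison, against 6.85% of the genes tested in T vs C, 2.47% in TE vs T, 8.67% in E vs C and 6.73% in TE vs E.

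The comparison of T with C asks what the tumor did to untrained muscle, and the class II genes showed no detectable difference there. H2-Aa differed by -0.23 (SE 0.37) on the log2 scale, H2-Ab1 by -0.07 (SE 0.33), H2-Eb1 by 0.02 (SE 0.34) and Cd74 by -0.28 (SE 0.38, 95% interval -1.08 to 0.51). Ciita differed by -0.68 (SE 0.91), H2-DMa by 0.01 (SE 0.24) and H2-DMb1 by -0.27 (SE 0.38). The median of the 7 was -0.23, with 2 higher and 5 lower in the T group, beside a median of -0.0012 over all genes tested. By edgeR's quasi-likelihood test 0 of 7 had a Benjamini-Hochberg adjusted p under 0.05 (0.781 to 0.995) and 0 of 7 an unadjusted p under 0.05, against 0.678% and 14.2% of the genes tested. For Cd74 the interval left room for a fall to less than the C level divided by 2 and for a rise, so a difference of moderate size could not be seen with 4 mice per group.

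The comparison of TE with T asks what training did in mice with a tumor. All 7 genes were higher in the TE group by the fitted value, with a median of 0.35 on the log2 scale, but none passed the test. Ciita differed by 2.00 (SE 0.90), H2-DMb1 by 0.50 (SE 0.38), Cd74 by 0.43 (SE 0.38), H2-Ab1 by 0.35 (SE 0.33), H2-Aa and H2-Eb1 by 0.29 each (SE 0.37 and 0.34) and H2-DMa by 0.07 (SE 0.24). Ciita had an unadjusted p of 0.0394 and an adjusted p of 0.847 by edgeR's quasi-likelihood test, and it was higher than the highest T mouse in 1 of 4 TE mice, TE4. By that test 0 of 7 were called at an adjusted p under 0.05, as were 0% of all genes (0 of 14749), and 1 of 7 at an unadjusted p under 0.05, against 5.88% of all genes.

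Without TE4, C3 and E1, the direction in TE vs T turned for 6 of the 7 genes. H2-Eb1 was then at -0.32 (SE 0.25), H2-DMa at -0.28 (SE 0.20), Cd74 at -0.27 (SE 0.25), H2-Aa at -0.25 (SE 0.28), Ciita at -0.22 (SE 0.48) and H2-Ab1 at -0.17 (SE 0.23), while H2-DMb1 stayed at 0.28 (SE 0.43). The median was -0.25, and by edgeR's quasi-likelihood test 0 of 7 had an adjusted or an unadjusted p under 0.05, against 0% and 4.79% of the 14777 genes tested in these 13 libraries. With TE4 alone left out, the same 6 genes were lower in the TE group, with a median of the 7 of -0.24. In FPKM, H2-DMa was lower in TE1, TE2 and TE3 than in all 4 T mice (exact permutation test, two-sided, p = 0.0571, the smallest that 3 against 4 mice can give, adjusted p = 0.969), and it was the 1 member of 7 whose ranges were then apart, against 4.63% of all genes.

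**Figure D2:**
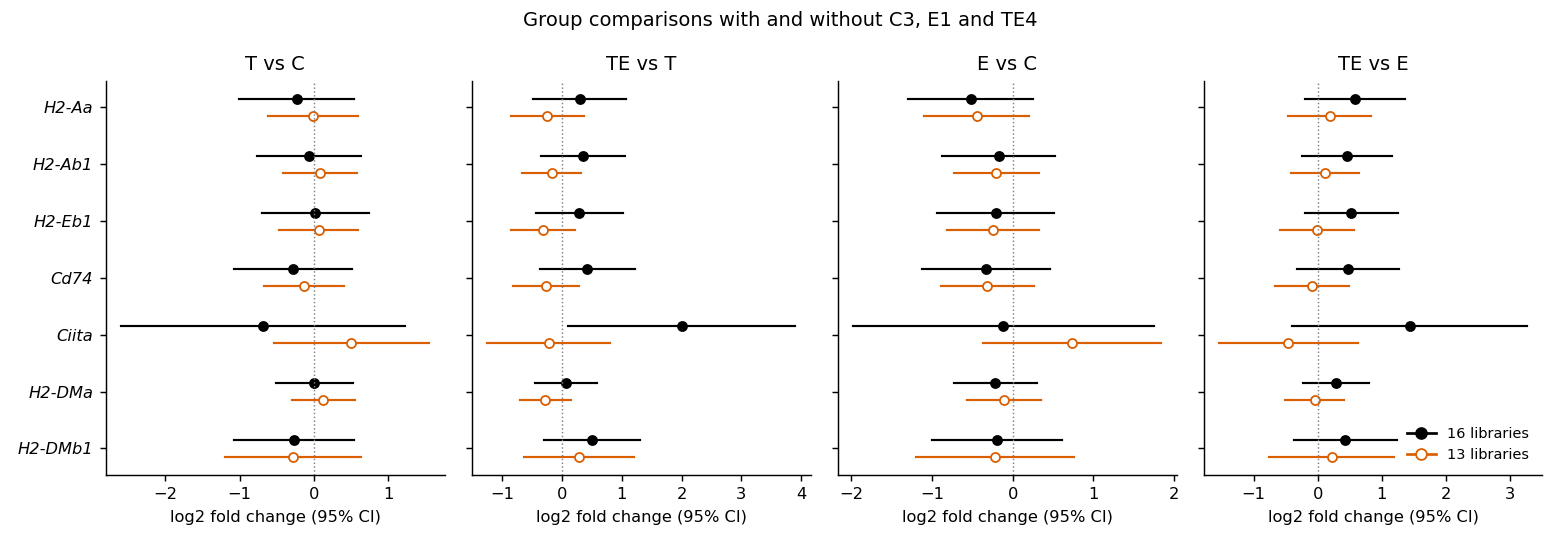
Log2 fold change of each gene (x axis) with its 95% confidence interval in 4 comparisons, from edgeR with all 16 libraries (black) and with 13 libraries (orange, without TE4, C3 and E1). In TE vs T the point for Ciita moved from 2.00 to -0.22, and each of the other intervals in the 4 panels crosses 0 with either set of libraries.

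In trained against untrained mice without a tumor (E vs C), all 7 genes were lower in the E group by the fitted value, from -0.52 (SE 0.37) for H2-Aa to -0.12 (SE 0.88) for Ciita, with a median of -0.21. None passed: by edgeR's quasi-likelihood test 0 of 7 had an adjusted p under 0.05 (the smallest was 0.547) and 0 of 7 an unadjusted p under 0.05, against 0.0881% and 14.2% of all genes. With 13 libraries the median was -0.22, Ciita turned to 0.74 (adjusted p = 0.513 by edgeR), and 0 of 7 passed either threshold, against 0.0271% and 15.7%. Within the C group, C1 held the lowest level of H2-Ab1, H2-Eb1 and H2-DMa among all mice while C2 and C3 were among the higher ones.

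In TE vs E, which compares tumor with no tumor among trained mice, all 7 genes were higher in the TE group by the fitted value, from 0.29 for H2-DMa to 1.44 for Ciita, with a median of 0.48. By edgeR's quasi-likelihood test 0 of 7 had an adjusted p (0.657 to 0.777) or an unadjusted p under 0.05, against 0.231% and 9.23% of all genes. With 13 libraries the median was -0.0093, 3 genes were higher and 4 lower, and 0 of 7 passed either threshold, against 0.108% and 7.63%. The interaction of tumor and training, which is the TE vs T difference minus the E vs C difference, was above 0 for all 7 genes, with a median of 0.70 and a value of 0.76 (SE 0.53) for Cd74. By the same edgeR test 0 of 7 had an adjusted p (the smallest was 0.618) or an unadjusted p under 0.05, against 0% and 9.21%. With 13 libraries its median was 0.026, 4 genes were above and 3 below 0, and 0 of 7 passed either threshold, against 0% and 9.22%. In T vs C, 13 libraries gave a median of 0.07, with 4 higher and 3 lower, and 0 of 7 past either threshold by edgeR, against 0.311% and 13.6%. DESeq2 and limma-voom, run on all 16 libraries, likewise called 0 of 7 in every contrast, and the share of all genes that they called was not counted. These comparisons share mice, and their medians are not separate evidence.

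The class II genes varied more between mice of 1 group than the median gene did. The SD of log2 CPM within groups was 0.61 for H2-Aa and Cd74, 0.56 for H2-Eb1, 0.54 for H2-Ab1, 0.48 for H2-DMb1 and 0.37 for H2-DMa, against 0.19 for the median gene. These 6 lay above 73.7 to 87.6% of the genes tested, and Ciita, with an SD of 1.28, above 99.2%. Without TE4, C3 and E1 the SD was 0.26 to 0.50 for these 6, above 61.5 to 82.3% of the genes tested, and 0.56 for Ciita, above 85.6%. These ranks were not matched for expression level. H2-DMb1 and Ciita had as few as 13 and 9 counts per library, and the share of counting error in their SD was not estimated.

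The 3 libraries with high lymph node genes did not hold all class II genes at the same factor over the other mice. In TE4, relative to the median CPM of the other 3 TE mice, H2-DMb1 was 1.93-fold, H2-DMa 2.14-fold, H2-Aa 2.75-fold, H2-Eb1 2.82-fold, H2-Ab1 2.85-fold and Cd74 3.20-fold higher, and Ciita was 16.2-fold higher. In C3 the factors ran from 1.11-fold for H2-Eb1 and 1.18-fold for H2-DMb1 to 1.77-fold for H2-Aa and 6.12-fold for Ciita. In E1 the largest factor was 2.21-fold, for Ciita, and H2-DMb1 was at 1.01-fold. Ciita was thus the member with the largest factor in each of these libraries, and the chains and Cd74 moved less.

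Some other class II genes were further above the other mice than the chains were in TE4, and less so or not at all in E1. H2-Ob, the beta chain of H2-O, which restrains H2-DM and is known above all from B cells, had 195 counts in TE4 against 2 to 17 in the other TE mice (18.7-fold over their median), 72 in C3 and 24 in E1. H2-Oa, its partner, had 102 counts in TE4, 15 in C3 and 12 in E1, and 0 to 7 in the other 13 libraries. H2-DMb2, the paralog of H2-DMb1, had 219 counts in TE4 against 16 to 42 in the other TE mice (8.45-fold). H2-Eb2, a further beta chain gene, had 42 counts in TE4, 2 in C3 and 0 in the other 14 libraries, where 0 counts allow up to 3 counts per library. In TE vs T, H2-Ob differed by 2.78 (SE 1.18) and H2-DMb2 by 1.38 (SE 0.63) on the log2 scale, with adjusted p of 0.839 and 0.847 by edgeR's quasi-likelihood test, and without the 3 libraries by 0.31 (SE 0.88) and -0.03 (SE 0.41).

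**Figure D3:**
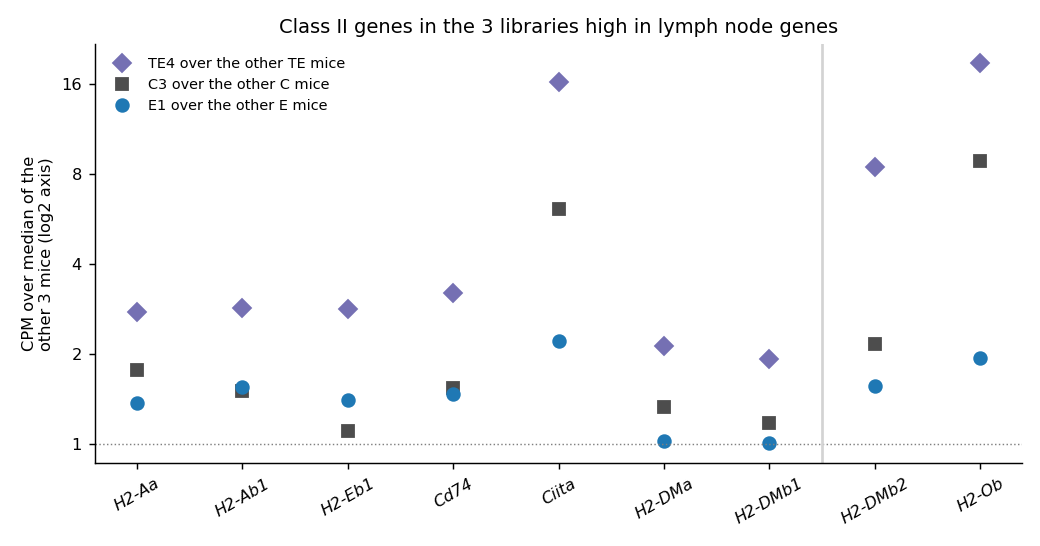
CPM in TE4, C3 and E1 divided by the median of the other 3 mice of the same group (log2 axis), for the 7 genes and, right of the grey line, H2-DMb2 and H2-Ob. The factor for TE4 was 16.2 for Ciita and 18.7 for H2-Ob, and 1.93 to 3.20 for the other 6 of the 7 genes.

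Of the other genes of class II presentation and of its control, none was called in any comparison. A list of 17 presentation genes (H2-O, H2-DMb2, the cathepsins and other enzymes that cut proteins and the invariant chain, and costimulators such as Cd86) had 16 found, without H2-Ea, and 14 tested. A list of 17 regulators (the RFX and NF-Y factors that bind X and Y boxes, Creb1, and the interferon gamma pathway) had 16 tested. By edgeR's quasi-likelihood test 0 of these 30 genes had an adjusted p under 0.05 in each of the 5 contrasts. Of all genes, 0.678% had one in T vs C, 0% in TE vs T, 0.0881% in E vs C, 0.231% in TE vs E and 0% in the interaction. Of the 30, 3 had an unadjusted p under 0.05 in T vs C (14.2% of all genes), 6 in TE vs T (5.88% of all genes), 2 in E vs C (14.2%), 4 in TE vs E (9.23%) and 6 in the interaction (9.21%). In TE vs T, 3 presentation genes (2 higher, 1 lower) and 3 regulators (all higher) had an unadjusted p under 0.05. Without TE4, C3 and E1, 0 of 29 tested were called in any contrast by edgeR. Of all genes, 0.311% were then called in T vs C, 0% in TE vs T, 0.0271% in E vs C, 0.108% in TE vs E and 0% in the interaction. In TE vs T with these 13 libraries, 0 presentation genes were higher and 3 lower at an unadjusted p under 0.05 beside 2 regulators that were higher, against 4.79% of all genes. Lgmn, which encodes a lysosomal protease that starts the cutting of the invariant chain, was the lower one with 16 libraries, at -0.32 (SE 0.11, adjusted p = 0.724 by edgeR), and with 16 libraries it was at 0.37 (SE 0.11, adjusted p = 0.127 by edgeR) in T vs C, where it passed only with T2 left out (adjusted p = 0.0394 by edgeR). Lgmn was named after its values were seen. Ifng, interferon gamma itself, had 0 counts in 15 of 16 libraries.

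Rfx5, Rfxank and Rfxap, which are needed with CIITA at class II promoters, did not follow the class II level across mice. Their correlations with the class II score, the mean of the 7 genes' scaled log2 CPM, were -0.12, 0.31 and 0.15 over 16 libraries and -0.10, -0.05 and 0.0099 over 13. Ciita had a correlation of 0.74 with the mean of the other 6 genes over the 16 libraries and of 0.21 over 13. H2-Ab1 (0.98 and 0.93), H2-Aa (0.94 and 0.92) and Cd74 (0.96 and 0.89) followed the other members with and without the 3 libraries, H2-Eb1 was at 0.91 and 0.81, H2-DMa at 0.88 and 0.77, and H2-DMb1 at 0.62 and 0.49. These are descriptions over libraries of 4 groups, given without a test, and low counts limit those of Ciita and H2-DMb1.

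The genes most like the class II score over the 16 libraries were Tmsb4x (r = 0.93), an actin-binding peptide of many leukocytes, Arhgap45 (r = 0.92), Rassf5 (r = 0.90), Gmfg (r = 0.90) and Klhl6 (r = 0.90), a gene known from B cells. Over the 13 libraries without TE4, C3 and E1 they were Tox (r = 0.90), Cd209a (r = 0.88), a lectin of monocyte-derived dendritic cells, Kmo (r = 0.85), an enzyme of tryptophan breakdown, Gm7030 (r = 0.85) and Cadm2 (r = 0.84). The 5 names of the first list and the 5 of the second had no gene in common. H2-DMb2 ranked 27 and H2-Ob 43 over 16 libraries and 391 and 637 over 13.

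Marker genes of other cells were set beside the class II genes in each mouse. The summed FPKM of the 7 genes was 41.2, 99.5, 103 and 66.7 in C1 to C4, 81.2, 55.0, 73.3 and 44.0 in E1 to E4, 59.8, 62.4, 90.2 and 51.8 in T1 to T4, and 44.0, 60.9, 60.4 and 182 in TE1 to TE4. The B cell sum was 0.406, 4.33, 14.3 and 1.08 in C1 to C4, 10.5, 4.58, 0.710 and 0.532 in E1 to E4, 0.149, 0.390, 0.600 and 0.338 in T1 to T4, and 0.427, 0.256, 0.680 and 43.3 in TE1 to TE4. TE4 was highest and C3 second in both. Among the other 13 mice, C2 was high in both. C1, E4 and TE1 had the lowest class II sums, with B cell sums of 0.406, 0.532 and 0.427. T1, TE2, T4 and T2 had lower B cell sums (0.149, 0.256, 0.338 and 0.390) with higher class II sums (59.8, 60.9, 51.8 and 62.4). T3 reached 90.2 FPKM of class II genes with a B cell sum of 0.600, and E2 had 55.0 FPKM with a B cell sum of 4.58. Cd79a and Cd79b, the signaling chains of the B cell receptor, had 491 and 454 counts in TE4 and at most 61 and 58 in the 13 other libraries, and Cd79a was at 0 counts in 2 of them. Of the 10 B cell genes tested, 0 were called in TE vs T by edgeR's test (0% of all genes). All 10 were higher, with a median of 5.78 on the log2 scale and an unadjusted p under 0.05 (5.88% of all genes). TE4 had been singled out beforehand by lymph node genes, and TE1 to TE3 had B cell sums of 0.256 to 0.680 against 0.149 to 0.600 in the T group. These p values thus rest on 1 mouse and are no evidence of a group difference. Without TE4, C3 and E1 only 2 B cell genes passed the filter, and both were lower in the TE group (median -1.41, 0 with an unadjusted p under 0.05 by edgeR, against 4.79% of all genes). The T cell sum, with Cd2 and Cd3g highest, was 21.9 in TE4, 10.2 in C3 and 5.45 in E1, and 0.609 to 4.21 in the others. Their part in the class II levels was not tested.

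Macrophage genes, led by Lyz2 and C1qa, went with the class II genes in some mice and not in others. Their summed FPKM was 62.0, 120, 86.6 and 61.8 in C1 to C4, 95.6, 118, 127 and 67.0 in E1 to E4, 78.9, 80.2, 169 and 178 in T1 to T4, and 79.2, 88.7, 95.3 and 158 in TE1 to TE4. C2, T3 and TE4 were high in both sums and C1 and E4 low in both, while T4 had the highest macrophage sum of all mice and the lowest class II sum of the T group. Lyz2 weighed most in these sums, at a mean of 61.2 FPKM against 11.5 for C1qa, and it was at 109 FPKM in TE4. In TE4, C1qc (6.92 FPKM), Mertk (0.502) and Folr2 (2.21) lay below their means over the 16 libraries (7.83, 0.612 and 2.56). The other macrophage genes lay above theirs. In T vs C, 14 of 14 macrophage genes were higher by the fitted value (median 0.67, 0 called by edgeR against 0.678% of all genes, 6 with an unadjusted p under 0.05 against 14.2%), while 5 of the 7 class II genes were lower. With 13 libraries 14 of 14 were higher (median 0.65, 0 called by edgeR against 0.311% of all genes, 4 with an unadjusted p under 0.05 against 13.6%), as were 4 of the 7 class II genes. In TE vs T, 13 of 14 were lower (median -0.26, 0 called by edgeR as were 0% of all genes, 1 with an unadjusted p under 0.05 against 5.88%), while all 7 class II genes were higher. With 13 libraries 14 of 14 macrophage genes (median -0.36, 0 called by edgeR as were 0% of all genes, 1 with an unadjusted p under 0.05 against 4.79%) and 6 of the 7 class II genes (median -0.25) were lower. Of the dendritic cell list, led by Clec10a and Zbtb46, the sum stayed between 3.16 and 6.76 FPKM with TE4 highest, and in TE vs T the median of the 7 genes tested was -0.14. None of its genes was called by edgeR (0% of all genes), and 0 had an unadjusted p under 0.05 in that contrast (5.88% of all genes). With 13 libraries the median of 6 tested was -0.11, with 0 called by edgeR (0% of all genes) and 1 at an unadjusted p under 0.05 (4.79% of all genes).

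**Figure D4:**
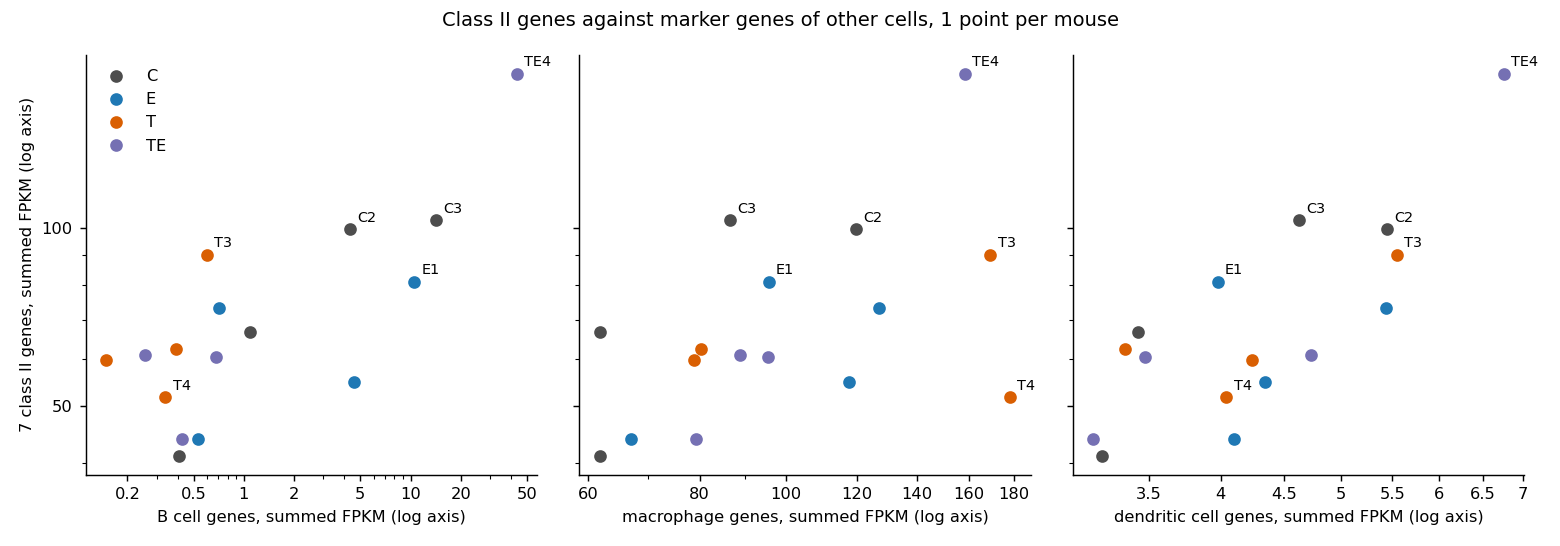
Summed FPKM of the 7 class II genes (y axis) against the summed FPKM of B cell, macrophage and dendritic cell genes (x axes, all log), 1 point per mouse. TE4 was highest on the y axis at 182 and on the B cell axis at 43.3, while T4 was highest on the macrophage axis at 178 with a class II sum of 51.8.

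Neutrophil genes were the only marker list with genes called in T vs C. Of 6 tested, 5 were called higher in T vs C by edgeR's quasi-likelihood test (0.678% of all genes), among them S100a8 at 3.70 (SE 0.67) and S100a9 at 3.38 (SE 0.60) on the log2 scale (adjusted p = 0.0147 each), which encode the chains of calprotectin, beside Ltf, Ngp and Retnlg. With 13 libraries 3 of 6 were called (0.311% of all genes), since the adjusted p by edgeR of S100a8 (0.0622) and Retnlg (0.0526) no longer passed. The summed FPKM of the list was 1.25 to 8.20 in mice without a tumor and 14.96 to 81.6 in mice with one, so these ranges were apart. The class II sums of 41.2 to 103 and 44.0 to 182 overlapped. How many of all genes had ranges apart between mice with and without a tumor was not counted. S100a9 and S100a8, at means of 10.97 and 5.55 FPKM, led the neutrophil sum, and the next gene, Retnlg, was at 0.773 FPKM.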

How the data were processed

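RNA of 16 muscle samples was measured, grouped by the labels. Per the labels and the submitters' processing notes, the authors trimmed reads with fastp 0.20.1, aligned them to GRCm39 with HISAT2 2.1.0 and deposited raw counts per gene from HTSeq 0.11.2. The authors also deposited FPKM, which equalled these counts scaled by a fixed length per gene and by the library total. The annotation release and strand setting are not given in the sources used here. The counts do not tell PCR copies apart, so limits from counts cover counting error only. Files held 0 columns of other samples.

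Counts were tested with edgeR 4.0.16 in R 4.3.3 (TMM factors, filterByExpr, quasi-likelihood test, 1 coefficient per group over 16 libraries, two-sided p adjusted by Benjamini-Hochberg within each contrast, threshold 0.05), checked on simulated data. Log2 CPM used a prior count of 2. FPKM were tested by exact permutation with scipy 1.17.1. Replicates differed beyond sampling noise in every group (chi-square per degree of freedom 12.7 to 61.3). Alternatives were DESeq2 1.42.0, its size factors, no filter, only the compared groups, a replicate block, limma 3.58.1 (voom with sample weights), log2(FPKM + 1) and log2(FPKM + 0.1), a mean FPKM of at least 1, TE4, C3 and E1 left out, and each library left out.

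The 7 genes, the gene lists and the 3 libraries were chosen with earlier results of these data known. Named are the 7 genes, H2-DMb2, H2-Oa, H2-Ob and H2-Eb2, genes of the presentation and regulator lists that were called, the 2 most abundant genes of each marker list (Ccl21a, at a mean of 14.0 FPKM, is the other one of lymph node) and any called, and the 5 genes most correlated with the class II score; other names were added after their values were seen. Columns of the authors' own comparisons were not used.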

Additional observations from a re-analysis of the deposited data

Results flagged for a closer look

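In groups of 4 mice, the gap between the farthest mouse and its nearest neighbor was divided by the range of the group for 11 class II genes, and a value above Dixon's 95% critical value was taken as standing apart. Of 42 groups, 12 had such a value, 8 of them from TE4. Chance gives such a value in about 1 of 20 groups, but TE4 and C3 had been singled out beforehand, genes share their libraries, and the value is always 1 where the other 3 mice have 0 counts, so the count is a description and no test.

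High in TE4 were Cd74 (0.905), Ciita (0.973), H2-DMa (0.917), H2-Eb1 (0.841), H2-DMb2 (0.873), H2-Oa (0.971), H2-Ob (0.924) and H2-Eb2 (1, since the other TE mice had 0 counts). H2-Aa, H2-Ab1 and H2-DMb1 were also highest in TE4 and stayed under the limit. In the C group, C3 stood apart for Ciita (0.975) and H2-Eb2 (1, from 2 counts). H2-Oa stood apart in T3 (0.853), where it had 7 counts. In the other direction, E4 was low for H2-DMa (0.840), at 0.390 FPKM against 0.453 to 0.465 in the other E mice, a narrow range in which a small distance is enough. Marker sums of lymph node and B cells were highest in TE4 and C3, and their part in these values was not tested.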

How the results depend on the processing

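No class II gene of the 7 was called in any contrast under any alternative, and the lowest adjusted p over these was 0.397 (edgeR, DESeq2 or limma). The share of all genes called was counted only for edgeR with 16 and with 13 libraries. The replicate numbers stand for different mice, and only 4 of 16 correlations between same-numbered mice were over 0.1, so they do not pair the samples. With the number as a replicate block, Ciita in E vs C turned to 0.28, and no call among the 7 genes changed. DESeq2, its size factors, no filter on low counts and a fit of only the compared groups turned no direction.

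With limma-voom and sample weights, H2-DMa (-0.063) and H2-Eb1 (-0.00394) turned in TE vs T and Ciita (0.11) in E vs C. Without TE4, C3 and E1, Ciita (0.51) and H2-Ab1 (0.086) turned in T vs C. In TE vs T, Cd74 (-0.27), Ciita (-0.22), H2-Aa (-0.25), H2-Ab1 (-0.17), H2-DMa (-0.28), H2-Eb1 (-0.32) and the median (-0.25) turned. In E vs C Ciita (0.74) turned. In TE vs E, Cd74 (-0.083), Ciita (-0.46), H2-DMa (-0.046) and H2-Eb1 (-0.0093) turned. In the interaction, Ciita (-0.96), H2-DMa (-0.17) and H2-Eb1 (-0.077) turned and the median went to 0.026. The cause was not tested.

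With each library left out in turn, the median ranged from -0.24 to 0.55 in TE vs T, its only value below 0 being that without TE4, from -0.063 to 0.70 in TE vs E (below 0 without TE4), from -0.41 to 0.07 in T vs C (above 0 without C3), from -0.39 to -0.10 in E vs C and from 0.00312 to 0.96 in the interaction. In TE vs T the ranges were -0.26 to 0.65 for Cd74, -0.22 to 2.36 for Ciita, -0.24 to 0.52 for H2-Aa, -0.17 to 0.55 for H2-Ab1, -0.27 to 0.18 for H2-DMa and -0.32 to 0.53 for H2-Eb1. In TE vs E they were -0.22 to 0.70 for Cd74, -0.79 to 1.79 for Ciita, -0.063 to 0.66 for H2-Ab1, -0.052 to 0.41 for H2-DMa and -0.089 to 0.76 for H2-Eb1. In T vs C they were -0.94 to 0.51 for Ciita, -0.26 to 0.089 for H2-Ab1, -0.17 to 0.13 for H2-DMa and -0.17 to 0.19 for H2-Eb1. In E vs C they were -0.46 to 1.08 for Ciita and -0.33 to 0.043 for H2-DMb1. In the interaction they were -0.10 to 2.47 for Ciita, -0.059 to 0.46 for H2-DMa and -0.11 to 0.74 for H2-Eb1. Among the other class II pathway genes the count of calls ranged from 0 to 1, the 1 being Lgmn in T vs C without T2 (0.45, SE 0.10, adjusted p = 0.0394 by edgeR).

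With 4 mice per group the standard errors of H2-Aa, H2-Ab1, H2-Eb1 and Cd74 in T vs C were 0.33 to 0.38 on the log2 scale, and Ciita and H2-DMb1 were further limited by counts as low as 9 and 13 per library.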
